A study of Mus musculus with 31 samples.

Results

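The mitochondrial respiratory chain is the set of protein complexes of the inner mitochondrial membrane that carries electrons from NADH and succinate to oxygen and uses the energy released to make ATP. The nuclear genes of these complexes were followed here through their promoters, as open chromatin in regulatory T cells (Tregs) of the mouse spleen after an injection of an IL-2 agonist. Members were the peaks of the promoter class whose listed genes include a symbol beginning with Nduf (complex I), Sdh followed by a, b, c or d and the assembly factors named after them (complex II), Uqcr (complex III), Cox4 to Cox8 (complex IV) or Atp5 (complex V, the ATP synthase), with pseudogenes left out. This gave 131 of the 29422 promoter peaks and of the 104979 peaks in all. They belonged to 91 genes: 37 of complex I, 4 of complex II, 8 of complex III, 13 of complex IV, 17 of complex V and 12 assembly factors, which help to build complexes I and II. Because overlapping peaks share reads, each gene was represented by 1 peak, its most abundant one within 1 kb of its own annotated start (90 genes) or, for Atp5md, whose start was not matched in the annotation, its only peak, and the gene counts below refer to these 91 peaks.

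Complex I oxidises NADH and complex II, which is also an enzyme of the tricarboxylic acid cycle, oxidises succinate. Both pass electrons through ubiquinone to complex III, cytochrome c carries them on to complex IV, and the ATP synthase is driven by the proton gradient that results. Most subunits are encoded in the nucleus and the rest in mitochondrial DNA. The nuclear genes are transcribed in nearly every cell, typically from GC-rich promoters bound by NRF1, by GABPA (an ETS family factor that with its partner is also called NRF2) and by YY1. Tregs are known for relying on mitochondrial respiration, and IL-2 is the cytokine that maintains them, acting through the receptor chain CD25 (Il2ra) and the transcription factor STAT5.

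Tregs had been sorted from spleens of C57BL/6 mice that report Foxp3 expression with a red fluorescent protein, and 50000 nuclei were tagged with Tn5 transposase for ATAC-seq, which counts cuts in accessible DNA. Before sorting, the animals were given either mIL-2 (5 µg, called IL2 below), the fusion protein mIL-2/CD25 (20 µg, called FP below) or PBS as vehicle (100 µL). All 3 treatments were present at 0.75 h and 16 h with 3 libraries each, and PBS and FP alone at 72 h (3 and 3 libraries) and 168 h (3 and 4), which makes 31 libraries. No label states whether the libraries of a group were from separate mice, so p-values measure the spread between these libraries, which may be technical, and time cannot be told apart from date of collection in levels set across times.

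Library totals ran from 7.39 to 59.6 M counts, and the median member promoter held between 107 and 1525 counts in a library. A lowest count of 10 was seen for Ndufb8 in the shallowest library, so each member was measured in each library. At 168 h the libraries PBS replicate 1 (7.39 M) and FP replicate 2 (12.3 M) correlated least with the others (mean r of 0.818 and 0.851). The Foxp3 promoter, the defining marker of Tregs, stood at 10.4 to 27.8 CPM (counts scaled to the library total) per kb of peak in the 31 libraries, and Il2ra at 8.94 to 30.2. Cd8a, Lyz2 and Klf1, markers of CD8 T cells, myeloid and erythroid cells, had no promoter peak in the table. Peaks of all classes at the B cell, CD8, NK, myeloid and erythroid lists still summed to 22.2 to 50.8, 42.0 to 126, 63.1 to 146, 59.2 to 154 and 62.5 to 166 CPM, and the T cell and Treg list to 241 to 528. These sums run over 11, 17, 16, 23, 33 and 87 peaks. Per peak the group means were 2.43 to 3.4, 3.68 to 6, 5.85 to 8.28, 3.23 to 5.5 and 2.47 to 3.89 CPM, and 4.1 to 5.19 for the T cell and Treg list, so that the mean per peak was higher for the NK list than for the Treg list. The part of these lists in the results was not tested.

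The sequences of these promoters carried the motifs the family is known for. In the central 300 bp of the peak, the NRF1 motif GCGCANGCG was found on either strand in 28 of the 91 promoters (30.8%), against 7.51% of all promoter peaks and 10.2% of those with an annotated start inside. The ETS motif CCGGAAG, which GABPA binds, was in 25 (27.5%, against 11.5% and 14.9%), and the YY1 motif AAGATGGCG in 10 (11.0%, against 2.05% and 2.87%). The SP1 motif GGGCGG was common in all sets (59.3%, 49.1% and 61.2%). The STAT5 motif TTCNNNGAA, the one most directly tied to IL-2, was in 9 members (9.89%, against 7.05% and 5.98%). The CRE motif TGACGTCA was in 4 (4.4%, against 1.69% and 2.23%). The ERR motif TCAAGGTCA was in none of these windows (0%, against 0.34% and 0.18%). It was in 12 whole member peaks, a count without a reference share, since whole peaks were searched for the members only. Base composition was close to that of other promoters, with a median GC content of 62.7% against 60.3% and 64.3%. NRF1 matches were in 9 of 17 complex V promoters, 8 of 37 of complex I, 3 of 13 of complex IV, 2 of 4 of complex II, 2 of 8 of complex III and 4 of 12 of the assembly factors. YY1 matches were in 5 complex I, 3 complex V, 1 complex III and 1 assembly factor promoters, and in 0 of complexes II and IV. A match is a run of letters and not a measured binding site.

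**Figure D1:**
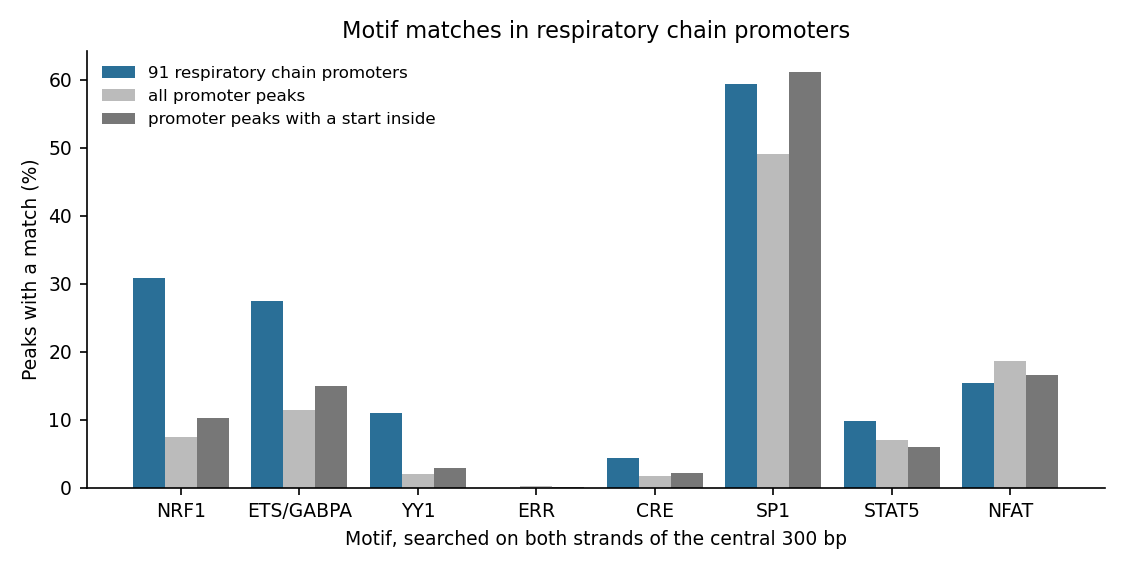
Share of peaks (in percent, vertical axis) with at least 1 match to each motif on either strand of the central 300 bp, for the 91 respiratory chain promoters, all promoter peaks and the promoter peaks with an annotated start inside. NRF1, ETS/GABPA and YY1 stand above both reference sets (30.8, 27.5 and 11.0%), and SP1, STAT5 and NFAT lie near them. CRE stands at 4.4%, against 1.69 and 2.23%.

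To show what these promoters look like, 6 upstream sequences are given 5′ to 3′ on the gene's strand, with NRF1 (GCGCANGCG) and ETS (CCGGAAG) matches on either strand in capitals. They are from RefSeq's promoter table of GRCm38.p6, which held 77 of the 91 genes, and were restricted to bases that no annotated exon covers. Cox6a1 (chr5:115348982-115349129, minus strand) and Ndufs5 (chr4:123718203-123718352, minus strand) show the NRF1 motif. Atp5e (chr2:174464106-174464255, minus strand) and Uqcrh (chr4:116075072-116075221, minus strand) show the ETS motif and are among the genes with the smallest p-values below. Cox6b2 (chr7:4753095-4753225, minus strand) and Cox7a1 (chr7:30183994-30184143, plus strand) are tissue-restricted paralogues, known from testis and from muscle, and hold neither motif in the stretch shown.
Cox6a1: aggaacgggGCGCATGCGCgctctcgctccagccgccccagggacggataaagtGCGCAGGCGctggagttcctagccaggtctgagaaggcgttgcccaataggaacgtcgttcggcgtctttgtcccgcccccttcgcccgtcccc
Ndufs5: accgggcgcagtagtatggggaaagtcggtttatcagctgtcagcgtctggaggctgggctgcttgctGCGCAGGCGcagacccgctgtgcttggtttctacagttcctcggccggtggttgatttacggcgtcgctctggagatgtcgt
Atp5e: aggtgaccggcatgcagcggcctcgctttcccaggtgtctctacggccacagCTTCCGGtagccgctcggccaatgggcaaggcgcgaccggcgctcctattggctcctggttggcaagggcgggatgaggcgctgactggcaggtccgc
Uqcrh: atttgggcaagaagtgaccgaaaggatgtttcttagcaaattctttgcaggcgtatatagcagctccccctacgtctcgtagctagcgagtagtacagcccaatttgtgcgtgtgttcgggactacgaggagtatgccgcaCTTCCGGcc
Cox6b2: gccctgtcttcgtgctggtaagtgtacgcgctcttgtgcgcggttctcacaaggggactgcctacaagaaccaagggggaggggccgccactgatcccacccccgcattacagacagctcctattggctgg
Cox7a1: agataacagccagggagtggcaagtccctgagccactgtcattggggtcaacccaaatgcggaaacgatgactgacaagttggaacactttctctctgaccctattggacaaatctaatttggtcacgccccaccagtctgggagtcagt
Sdhd, which encodes a membrane anchor of complex II, combined both motifs before its RefSeq start, GCGCACGCG at position -79 and CTTCCGG (the ETS motif on the other strand) at -46. In the peak windows, 6 genes held NRF1 and ETS matches together, 51 held at least 1 of NRF1, ETS and YY1, and 40 held none of these.

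Respiratory chain promoters were often shared with a neighbour. Of the 91 peaks, 46 (50.5%) listed a second gene, against 22.4% of all promoter peaks. The 2 sets are unlike, since 98.9% of the 91 peaks held an annotated start, against 66.1% of all promoter peaks. Their median widths were 947 and 591 bp. The part of start and width in the share was not tested. Atp5j, which encodes coupling factor 6 of the ATP synthase, shared its peak with Gabpa, the gene of the ETS factor itself. Sdhd shared one with Timm8b, a chaperone of mitochondrial protein import, while Ndufb5 and Ndufs6 of complex I shared theirs with Mrpl47 and Mrpl36 of the mitochondrial ribosome. Counts in such a peak cannot be divided between the 2 genes. Shared promoters had a median level of 21.7 CPM per kb and the other 45 one of 13.8, while the 28 with an NRF1 match stood at 18.1 and the 63 without at 19.6.

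Accessibility of the members was above that of the typical promoter peak. The mean over all 31 libraries had a median of 18.5 CPM per kb over the 91 genes, against 11.5 for all promoter peaks and 13.6 for those with a start inside. Each gene was represented by its most abundant or only peak, whereas both reference sets kept every promoter peak, secondary ones included. The 91 peaks were also wider, with a median of 947 bp against 591 bp for all promoter peaks. The part of the choice of peak in the difference was not tested. Of the 91 genes, 69 lay above the median of all promoter peaks, 19 in the top 10% and 5 in the bottom 25%. The range ran from 4.18 for Atp5l, subunit g of the ATP synthase, to 103 for Cox7c, a small subunit of complex IV.

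The complexes differed among themselves in level. Assembly factors had a median of 27.6 CPM per kb, complex III 24.5, complex II 23.6, complex V 18.1, complex I 16.0 and complex IV 11.1, which was the one set below the promoter median. The sets followed gene symbols, so complex IV included the tissue-restricted Cox6b2 (4.39) and Cox7a1 (5.67) and left out Ndufa4. The part of this make-up in its median was not tested. Within complex I, Ndufa5 of the peripheral arm was highest (65.4) and Ndufa1 lowest (5.17), and the catalytic subunits Ndufs1 and Ndufv1 stood at 26.8 and 13.8. Ndufa4, named for complex I but now counted to complex IV, stood at 53.0. In complex II the flavoprotein Sdha was highest (35.7), followed by the anchor Sdhd (24.8), the iron-sulfur subunit Sdhb (22.5) and the anchor Sdhc (19.6). In complex III Uqcrb was highest (38.3) and Uqcr11 lowest (7.12), with the Rieske protein Uqcrfs1 at 25.2 and the core protein Uqcrc1 at 10.1.

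Complex IV spanned the widest range of levels, 23.4-fold. Cox7a2l, a factor that joins complexes III and IV, stood at 30.9 CPM per kb, whereas Cox5b, Cox4i1 and Cox5a stood at 12.8, 10.2 and 6.62. In the ATP synthase, Atp5j was at 61.9, the catalytic subunit Atp5b at 34.1, the ring subunit Atp5g1 at 28.5 and Atp5k at 18.1. Ndufaf4 (47.8) was highest and Ndufaf1 (8.21) lowest of the assembly factors.

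**Figure D2:**
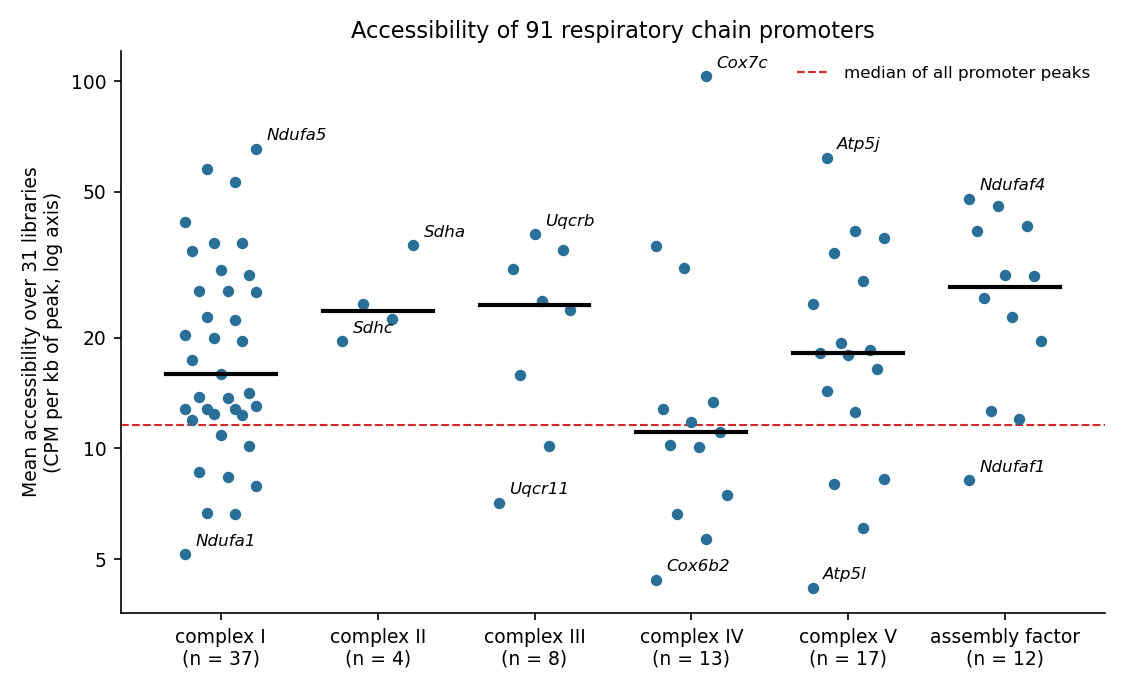
Mean accessibility over the 31 libraries (CPM per kb of peak, log axis) of each of the 91 genes, by complex, with the set median as a bar and the median of all promoter peaks (11.5) as a dashed line. The highest and lowest gene of each set is named, and complex IV is the set whose median (11.1) is under the dashed line.

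Paralogues of the same subunit differed in level. Cox7a2, the widely expressed form, ran from 24.8 to 54.3 CPM per kb and Cox7a1, known from muscle, from 2.14 to 11.0, so that Cox7a2 was higher in 31 of 31 libraries and 6.28-fold higher in the mean. Cox6b1 (3.72 to 12.7) and Cox6b2 (1.94 to 7.35) overlapped, with Cox6b1 higher in 27 of 31 libraries and 1.70-fold higher in the mean. Of 9 further RefSeq genes that fit the rule by name, none had a promoter peak. Of these, Cox4i2, Cox6a2, Cox7b2, Cox8b, Cox8c and Ndufa4l2 are forms known from lung, muscle, testis or hypoxic cells. The others were the complex I subunit Ndufb1 and the Ndufb4-like genes Ndufb4b and Ndufb4c, with no peak of any class. Cox6a2 and Cox8b had none either, while Cox4i2, Cox7b2, Cox8c and Ndufa4l2 had peaks outside the promoter class. An intergenic peak of Ndufa4l2, 1756 bp from the nearest annotated start, had a mean of 14.3 CPM per kb. The other peaks of these genes stood at 2.25 to 10.3.

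No respiratory chain promoter passed the test after IL2 or FP at any time in the main analysis, and 1, that of Sdhd at 168 h, did so in an alternative one. In the quasi-likelihood test of edgeR with Benjamini-Hochberg adjustment over all tested peaks, 0 of the 130 member peaks that passed the count filter were called in each of the 8 comparisons below, and 1 member did not pass it. The spread between libraries was smaller for the members than for promoters at large, with a median biological coefficient of variation of 19.5 to 23.0% over the 4 times against 27.1 to 32.2%. This bounded the changes gene by gene: against PBS, the 95% interval of the fold change lay within 2-fold either way for 74 and 78 of the 91 genes at 0.75 h (IL2 and FP), 85 and 79 at 16 h, 88 at 72 h and 74 at 168 h. Of all promoter peaks, 46.1, 48.5, 55.1, 52.5, 61.3 and 49.3% had an interval within 2-fold in these 6 comparisons. The 91 peaks were wider than promoter peaks at large (median 947 against 591 bp) and higher in level (18.5 against 11.5 CPM per kb). The part of counts per peak in the smaller spread and in these shares was not tested. An interval within 1.5-fold was reached by 24 to 39 genes.

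**Figure D3:**
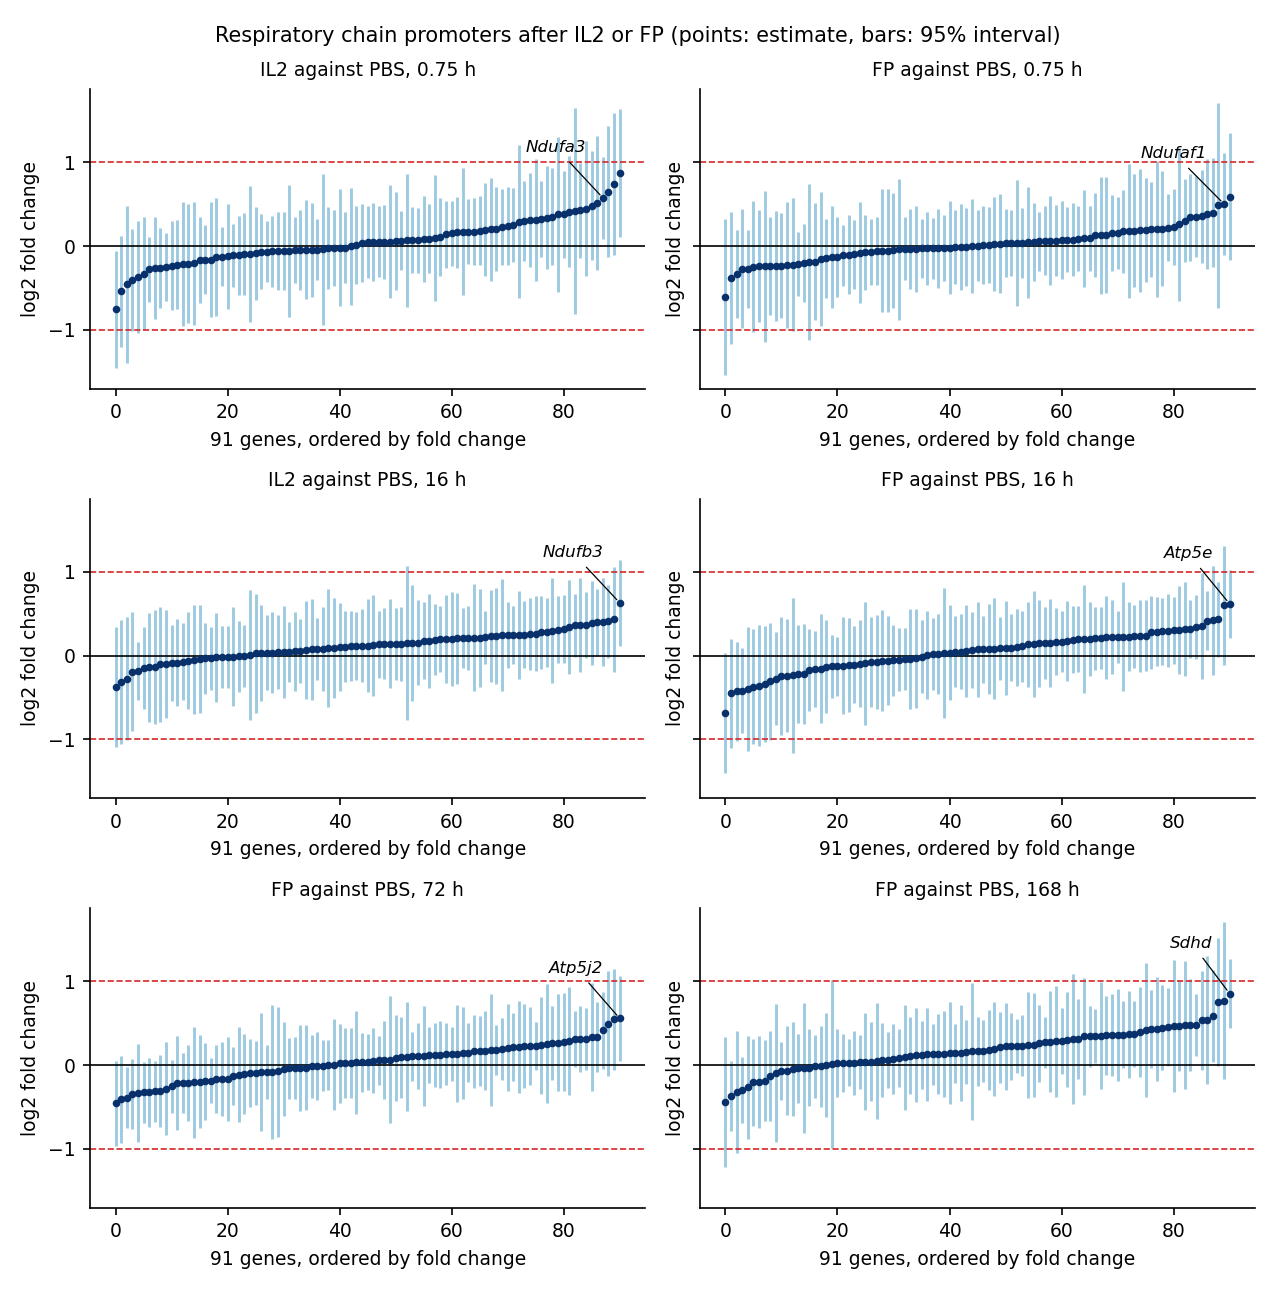
log2 fold change (vertical axis) of the 91 genes, ordered by size, in the 6 comparisons with PBS of the same time, with 95% intervals as bars and dashed lines at 2-fold. The gene with the smallest p is named in each panel. Among others, Ndufa3 (IL2, 0.75 h), Ndufb3 (IL2, 16 h), Atp5e (FP, 16 h) and Sdhd (FP, 168 h) have their whole interval above 0. None of them was called by edgeR.

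At 0.75 h, the first comparison asked whether the promoters open within the first hour of IL-2 receptor signalling. After IL2, 0.497% of all tested peaks were called against PBS and 0 of the members, and 3 of the 91 genes (against 3.28% of promoter peaks) had an unadjusted p under 0.05. DESeq2 called 1.07% of peaks and 0 of 130 members. With the replicate number as a block 983 peaks in place of 499 and again 0 members were called, and 6 genes (against 6.1%) had an unadjusted p under 0.05. Without PBS replicate 2 there were 9 such genes (against 6.18%), without PBS replicate 1 there was 1 (2.73%) and without IL2 replicate 1 there were 0 (2.93%), while the peaks called in all ranged from 187 (without PBS replicate 3) to 591 (without FP replicate 3). For scale, the peak with the smallest p of Bcl2, a survival gene known as an IL-2 target, rose in the same libraries by 2.14 ± 0.22 (log2, SE; adjusted p = 0.00029, edgeR). The corresponding peaks at Cish, a STAT5 target that feeds back on the receptor (promoter), and at Il2ra and Foxp3 (introns) stood at fold changes of 1.71 ± 0.405, 1.55 ± 0.42 and 0.995 ± 0.24 with adjusted p of 0.0784, 0.163 and 0.0964 (edgeR), which did not pass. Member fold changes had a median of 0.05 on the log2 scale, beside -0.03 for all promoter peaks, with 48 genes above 0 and 43 below.

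Ndufa3, an accessory subunit of complex I, had the smallest p after IL2 at 0.75 h. Its level was 24.4, 25.8 and 19.5 CPM per kb after IL2 and 11.7, 17.4 and 18 after PBS. The groups did not overlap, and the log2 fold change was 0.57 ± 0.23 (SE; adjusted p = 0.683, edgeR). Uqcrc1 stood at 12.7, 10.4 and 7.84 after IL2 and 4.63, 8.57 and 3.71 after PBS, overlapping groups with a log2 fold change of 0.87 ± 0.36 (adjusted p = 0.717, edgeR). Ndufv3, of the NADH-oxidising module, went the other way, with 5.65, 9.51 and 6.13 after IL2 and 8.82, 18.1 and 9.19 after PBS (-0.75 ± 0.33). Groups did not overlap for 1 gene higher after IL2 and 4 lower, where 4.1% and 3.79% of promoter peaks did so. Of 31 tested erythroid peaks 15 had an unadjusted p under 0.05 in this comparison and 1 was called higher, and the part of these cells in the result was not tested.

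FP at 0.75 h called 2 peaks by edgeR (0.00199% of all tested), with 0 to 25 where 1 library was left out and 129 with the replicate number as a block, and 0.434% by DESeq2. Bcl2 was among the 2 (1.69 ± 0.22 on the log2 scale; adjusted p = 0.0175, edgeR), and 0 members were. No member gene had an unadjusted p under 0.05 (0 of 91, against 1.67% of promoter peaks; 2 without PBS replicate 2, against 4.74%), and DESeq2 called 0 of the 118 members to which it gave an adjusted p. The smallest p was that of Ndufaf1, a chaperone of complex I, at 7.37, 10.2 and 11.2 CPM per kb after FP and 8.16, 5.57 and 6.79 after PBS (0.50 ± 0.29 on the log2 scale; adjusted p = 1, edgeR). Uqcrc1 followed with 6.18, 11.6 and 7.4 after FP (0.59 ± 0.36). The member median was 0.00, as was that of all promoter peaks, 47 genes lay above 0 and 44 below, and groups did not overlap for 3 genes higher (against 3.08% of promoter peaks) and 1 lower (against 2.77%).

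Between IL2 and FP at 0.75 h, edgeR called 0% of all tested peaks and 0 of 130 members, and DESeq2 0.00477% of peaks and 0 of 131 members. By edgeR 3 of 91 genes had an unadjusted p under 0.05, against 2.5% of promoter peaks, and 0 without IL2 replicate 1 (against 2.06%). Cox6b1 was at 5.30, 4.33 and 5.20 CPM per kb after FP and 9.66, 11.1 and 6.83 after IL2, with FP lower in separate groups (-0.89 ± 0.37 on the log2 scale; adjusted p = 1, edgeR). Its PBS libraries stood at 3.91, 9.63 and 4.15 and overlapped both. FP and IL2 were without overlap for 1 gene higher after FP and 5 lower (against 3.47% and 3.77% of promoter peaks). In the same comparison 19 of 31 tested peaks of the erythroid list had an unadjusted p under 0.05, the list summing to 106 to 166 CPM after FP, 93.2 to 124 after IL2 and 80.8 to 99.9 after PBS. Its part in the result was not tested.

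At 16 h, edgeR called 0 peaks of any kind for IL2 against PBS (0%) and so 0 of 130 members, while DESeq2 called 1 peak (0.000953%) and 0 of 131 members. Member fold changes had a median of 0.12 (log2), beside 0.07 for all promoter peaks, and 67 of 91 genes lay above 0. Library totals did not overlap between these groups either, with 28.3, 33.2 and 38.6 M counts after IL2 and 23.6, 17.1 and 19.2 M after PBS, and with the library total as a covariate the member median was -0.10. Leaving out 1 library gave 0 to 5 genes at an unadjusted p under 0.05. There were 0 without the first PBS column of the table (against 3.05% of promoter peaks) and 5 without the first IL2 column (against 3.94%). With all libraries only 1 gene had such a p, against 3.16% of promoter peaks. This was Ndufb3 of complex I, at 15.2, 12.6 and 20.8 CPM per kb after IL2 and 9.91, 12.1 and 9.46 after PBS, groups that did not overlap (0.63 ± 0.25 on the log2 scale; adjusted p = 1, edgeR). Of the other members, a 205 bp second peak of Ndufb11 differed by -1.08 ± 0.50 at an unadjusted p under 0.05, while the main Ndufb11 peak stood at 24.5, 35.7 and 30.1 after IL2 and 21.7, 25.5 and 22.8 after PBS. Groups did not overlap for 8 genes higher after IL2 (against 6.17% of promoter peaks) and 0 lower (against 2.42%).

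FP at 16 h called 0.114% of all tested peaks, Bcl2 again among them at 1.95 ± 0.28 (log2; adjusted p = 0.00263, edgeR), and 0 of 130 members. DESeq2 called 0.695% of peaks and 0 of 120 members. The member median was 0.07 beside 0.03 for all promoter peaks and turned to -0.04 with the library total as a covariate. Unadjusted p was under 0.05 for 2 of 91 genes, against 4.58% of promoter peaks, and for 1 to 8 where 1 library was left out. There was 1 without the second FP column (against 3.64% of promoter peaks) and 8 without the second PBS column (against 6.47%). In these runs 37 to 143 peaks were called in all in place of 115.

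Atp5e, the epsilon subunit of the ATP synthase, was the nearest to a call in this comparison. It stood at 33.0, 34.3 and 29.4 CPM per kb after FP and at 22.3, 21.3 and 19.4 after PBS, groups that did not overlap, with IL2 between them at 22.5, 26.6 and 29.4. The log2 fold change of FP was 0.62 ± 0.20 (95% interval 0.21 to 1.02; adjusted p = 0.476, edgeR). At the other times its FP and PBS libraries overlapped. Ndufaf7, a methyltransferase that modifies a complex I subunit, was at 45.6, 46.6 and 39.1 after FP and 32.5, 35.5 and 30.4 after PBS (0.42 ± 0.17; adjusted p = 0.833, edgeR), also without overlap. Groups did not overlap for 11 genes higher after FP (against 8.17% of promoter peaks) and 1 lower (against 4.44%), the lower one being Atp5l at 3.56, 2.66 and 4.13 after FP and 6.26, 4.15 and 6.17 after PBS. The nearest libraries of these Atp5l groups, 4.13 and 4.15, were almost equal, and Atp5l had the lowest mean level of all members. The myeloid list moved with these groups, summing to 116 to 143 CPM after FP and 59.2 to 97.9 after PBS with 9 of 23 tested peaks at an unadjusted p under 0.05 and none at 0 in either group, and its part in the result was not tested.

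FP and IL2 at 16 h differed at 0.141% of all tested peaks, where Bcl2 was higher after FP by 1.77 ± 0.27 (log2; adjusted p = 0.00387, edgeR), and at 0 members by edgeR. DESeq2 called 0.459% of peaks and 0 of 131 members. Leaving out 1 library gave 38 to 180 called peaks in place of 142, and 0 to 3 genes at an unadjusted p under 0.05. There were 0 without the third IL2 column (against 4.71% of promoter peaks) and 3 without the second (against 4.36%). With all libraries the only such gene (against 3.26% of promoter peaks) was Sdhaf1, a complex II assembly factor, at 19.7, 17.5 and 17.2 CPM per kb after FP and 22.4, 24.6 and 25.3 after IL2. FP was lower without overlap (-0.41 ± 0.18 on the log2 scale; adjusted p = 0.913, edgeR). Between the agents, no overlap was seen for 3 genes higher after FP and 4 lower (against 3.55% and 4.73% of promoter peaks). The NK list did not overlap between them either, at 119 to 146 CPM after FP and 87.3 to 118 after IL2 with 1 of 16 peaks at an unadjusted p under 0.05, and 11 of 31 erythroid peaks were under that p with 1 called higher. The part of either list was not tested.

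At 72 h, edgeR called 0 peaks of the table after FP (0%) and so 0 of 130 members. DESeq2 called 0.207% of the peaks to which it gave an adjusted p, and 0 of 121 members. By edgeR 2 of 91 genes had an unadjusted p under 0.05 (against 4.28% of promoter peaks). Without PBS replicate 3 there were 13 (against 15.3%) and without FP replicate 2 there were 0 (against 1.38%). Without PBS replicate 1 or FP replicate 3 there was 1 (against 2.02% and 3.1%). The member median was 0.04 on the log2 scale beside 0.05 for all promoter peaks, and -0.02 where scaling factors came from promoter peaks alone. Atp5j2, subunit f of the ATP synthase, was at 8.73, 7.26 and 8.53 CPM per kb after FP and 6.34, 4.47 and 5.49 after PBS, without overlap (0.56 ± 0.23; adjusted p = 0.93, edgeR). Ndufa5 was at 57.6, 62.1 and 69.5 after FP and 80.0, 95.9 and 65.0 after PBS, with overlap (-0.39 ± 0.16; adjusted p = 0.93, edgeR). In complex II, Sdhc was at 23.6, 27.2 and 28.9 after FP and 21.3, 19.5 and 22 after PBS, without overlap (0.31 ± 0.15). At 72 h the groups were apart for 7 genes higher after FP (against 6.26% of promoter peaks) and 3 lower (against 3.16%).

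At 168 h, 0 peaks were called after FP by edgeR (0%), among them 0 of 130 members, and 4 of 91 genes had an unadjusted p under 0.05, against 4.35% of promoter peaks. All 4 were higher, as were 3.3% of promoter peaks at that p. Leaving out 1 library moved this count to 18 without PBS replicate 4 (against 14.4% of promoter peaks), 15 without FP replicate 2 (13.5%), 2 without PBS replicate 2 (1.83%) and 1 without FP replicate 3 (2.22%). DESeq2 gave an adjusted p to 81 members and called 1 of them, Sdhd, and it called 0.236% of the 19491 peaks to which it gave one. The member median was 0.16 on the log2 scale beside 0.13 for all promoter peaks, and 72 of 91 genes lay above 0. The share of counts in promoters (without the largest peak) was 58.1, 58.6 and 62.5% after PBS and 65.1, 60.5, 63.9 and 64.9% after FP, with overlap. Library totals in the same order were 7.39, 13.4 and 33.7 M counts after PBS and 32.8, 12.3, 34.4 and 37.7 M after FP. The part of depth in these shares was not tested. With scaling factors from promoter peaks alone the medians were 0.03 for the members and 0.00 for all promoter peaks.

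Sdhd held 29.3, 27.6, 27.3 and 29.1 CPM per kb in the FP libraries of 168 h and 13.6, 13.2 and 19.5 in the PBS libraries. The groups did not overlap, and the shallow FP replicate 2 (27.6, from 283 counts) lay with the other FP libraries. The log2 fold change was 0.85 ± 0.19 (95% interval 0.44 to 1.27), which over 102580 tested peaks gave an adjusted p of 0.899 by edgeR. DESeq2 gave 0.84 on the same scale and an adjusted p of 0.0351. Leaving out each 168 h library in turn kept the edgeR estimate between 0.75 and 1.06. Without both shallow libraries (PBS replicate 1 and FP replicate 2) it was 0.77 ± 0.20 (adjusted p = 0.285, edgeR). That fit kept PBS replicate 2, which held 13.4 M counts. The lower PBS values, 13.6 and 13.2, were from PBS replicates 1 and 2 (7.39 and 13.4 M counts, 86 and 161 of them at Sdhd). PBS replicate 4, at 19.5, held 33.7 M counts, and the part of depth in the Sdhd difference was not tested. The PBS libraries of the other times stood at 19.0 to 28.3, so the FP libraries of 168 h lay near the top of that range, 2 of the 3 PBS libraries of 168 h lay under it and the other lay at its lower end.

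At the earlier times Sdhd was nearer to its PBS level. Its log2 fold change against PBS was 0.15 ± 0.22 at 0.75 h, 0.07 ± 0.22 at 16 h and 0.15 ± 0.16 at 72 h. The difference between the 168 h and 72 h effects was 0.69 ± 0.28 (adjusted p = 1, edgeR over all 31 libraries). The other anchor Sdhc stood at 22, 16.4, 21.3 and 25.2 after FP and 12.7, 16.1 and 20.1 after PBS at 168 h (0.36 ± 0.22), and Sdhb at 26.1, 18.5, 25.2 and 25.5 after FP and 15.8, 13.9 and 22.6 after PBS (0.43 ± 0.21). The groups overlapped for both, and Sdha, the catalytic subunit, differed by -0.02 ± 0.17. By complex, the median log2 fold change at 168 h was 0.39 for the 4 genes of complex II, 0.22 for complex I (33 of 37 genes above 0), 0.21 for complex III, 0.17 for complex V, 0.08 for the assembly factors and 0.07 for complex IV.

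Among the other genes at 168 h, Uqcrh, the hinge protein that links cytochrome c1 to cytochrome c, was at 35.6, 28.6, 39.3 and 36.1 CPM per kb after FP and 20.1, 24.8 and 29.4 after PBS, with overlap (0.48 ± 0.17; adjusted p = 0.899, edgeR). Atp5md of the ATP synthase was at 20.6, 13.6, 15.6 and 13.5 after FP and 12.4, 7.46 and 11.6 after PBS, without overlap (0.58 ± 0.25). Ndufb5 of complex I was at 44.6, 54.9, 48.8 and 48.2 after FP and 42.4, 34.7 and 37.9 after PBS, also without overlap (0.34 ± 0.15). Groups did not overlap for 6 genes higher after FP (against 5.26% of promoter peaks) and 1 lower (against 1.36%), the lower one being Atp5k at 20.6, 16.1, 21.9 and 21.8 after FP and 25.8, 21.9 and 25.6 after PBS. The nearest libraries of these Atp5k groups were almost equal.

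**Figure D4:**
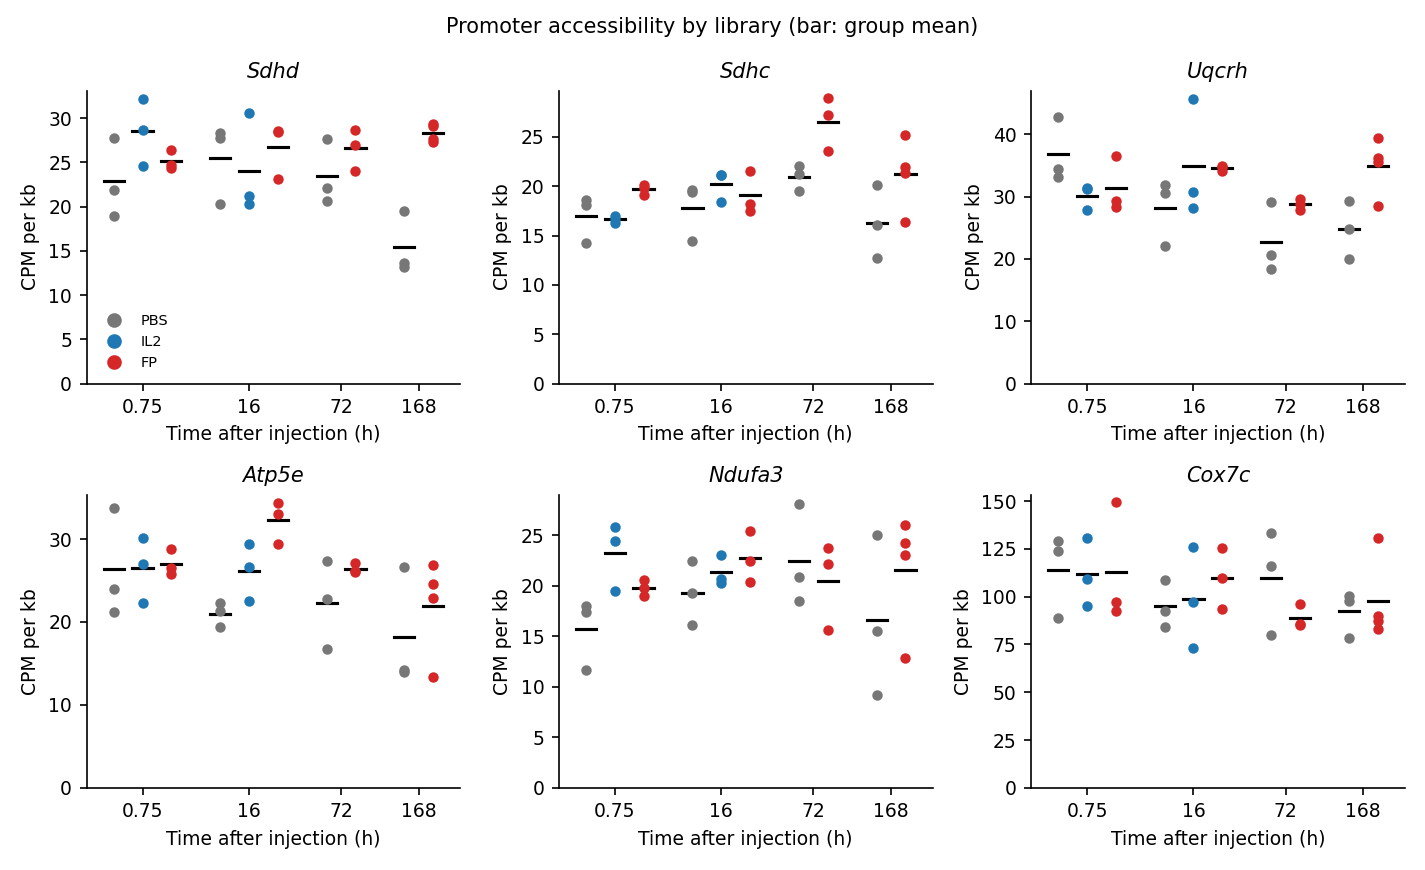
Accessibility (CPM per kb, vertical axis from 0) in each library against the time after injection, by treatment, with group means as bars, for Sdhd, Sdhc, Uqcrh, Atp5e, Ndufa3 and Cox7c. At 168 h the 4 FP libraries of Sdhd (27.3 to 29.3) lie above the 3 PBS libraries (13.2 to 19.5), and Cox7c overlaps between treatments at each time.

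The most accessible promoters and the catalytic subunits did not pass the test in any comparison with PBS. Cox7c was at 129, 88.7 and 124 CPM per kb after PBS at 0.75 h and 131, 95 and 109 after IL2, and its log2 fold change against PBS lay between -0.34 ± 0.19 (FP, 72 h) and 0.21 ± 0.18 (FP, 16 h) in the 6 comparisons. Atp5j, with 47.7 to 77 in the PBS libraries, lay between -0.19 ± 0.12 and 0.27 ± 0.14. The catalytic Atp5b lay between -0.06 ± 0.26 and 0.30 ± 0.23, the Rieske protein Uqcrfs1 between -0.26 ± 0.14 and 0.18 ± 0.23, Cox4i1 between -0.22 ± 0.35 and 0.37 ± 0.24, and Ndufs1 between -0.13 ± 0.16 and 0.22 ± 0.21.

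No member passed the test of a difference in effect between times. In the fit of all 31 libraries, the FP effect at 16 h against that at 0.75 h called 0 of 130 members (0% of all tested peaks) with 2 at an unadjusted p under 0.05 (against 2.68% of promoter peaks), and 72 h against 16 h called 0 (0.000957%) with 3 (against 2.55%). The FP effect at 168 h against that at 72 h called 0 (0%) with 3 (against 1.24%), and the IL2 effect at 16 h against that at 0.75 h called 0 (0.0411%) with 2 (against 3.47%). DESeq2 called 0 members in each of these 4, and in the same order 0.00191, 0.000953, 0 and 0.304% of peaks. The smallest p was that of Ndufa5, 72 h against 16 h (-0.69 ± 0.28; adjusted p = 1, edgeR), whose FP effect had been 0.34 ± 0.18 at 16 h and -0.39 ± 0.16 at 72 h.

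Genes that work with the chain did not pass the test either. Of further assembly factors such as Surf1 and Bcs1l (37 tested promoter peaks), electron carrier and ubiquinone genes (40), tricarboxylic acid cycle genes (22 or 23), genes for mitochondrial DNA upkeep such as Tfam (15), the mitochondrial ribosome (162 or 163), regulators such as Nrf1, Gabpa, Yy1 and Esrra (50) and glycolysis (25), each list gave 0 higher and 0 lower in each of the 8 comparisons by edgeR. Several peaks may belong to a gene. Per list and comparison with PBS, 0 to 3 peaks of the assembly, carrier, cycle, DNA upkeep and glycolysis lists had an unadjusted p under 0.05. The mitochondrial ribosome had 2 such peaks after IL2 and 1 after FP at 0.75 h, 1 and 1 at 16 h, 1 at 72 h and 6 at 168 h. The regulators had 1 and 0 at 0.75 h, 1 and 1 at 16 h, 0 at 72 h and 0 at 168 h. Of all promoter peaks, 3.28% (IL2) and 1.67% (FP) had such a p at 0.75 h, and 3.16% and 4.58% at 16 h. The shares after FP were 4.28% at 72 h and 4.35% at 168 h. At 168 h the medians of all 7 lists lay above 0, from 0.13 for the tricarboxylic acid cycle to 0.26 for glycolysis, beside 0.16 for the members and 0.13 for all promoter peaks.

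**Figure D5:**
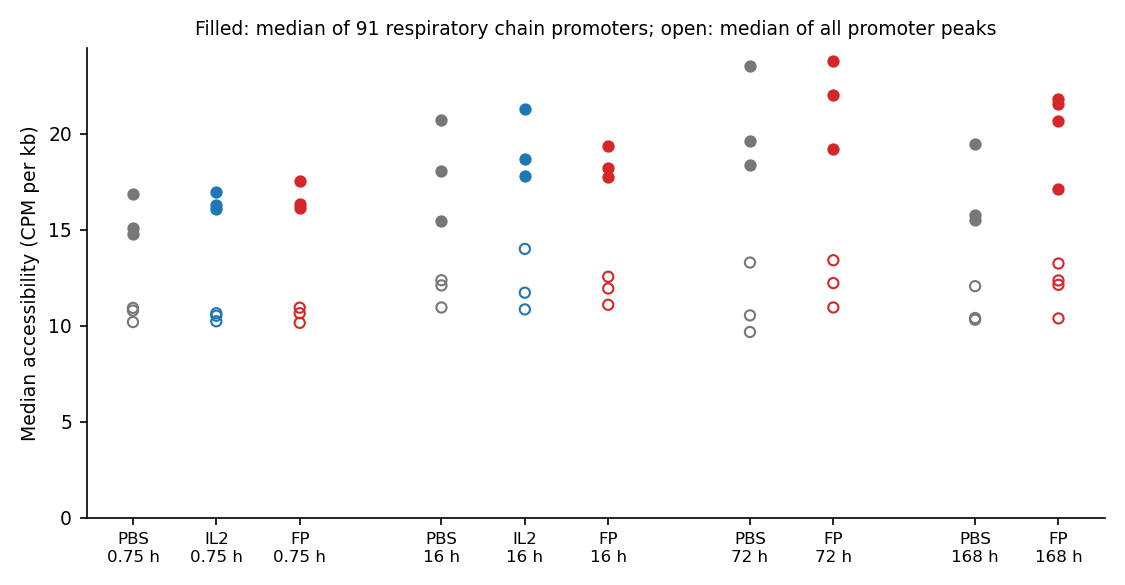
Median accessibility (CPM per kb, vertical axis from 0) in each library, filled for the 91 respiratory chain promoters and open for all promoter peaks, by treatment and time. In each library the filled point lies above the open one, and treatments overlap at each time.

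Library by library, the median member stood at 14.8 to 16.9 CPM per kb after PBS, 16.1 to 17.0 after IL2 and 16.1 to 17.5 after FP at 0.75 h. At 16 h the same values were 15.5 to 20.7, 17.8 to 21.3 and 17.8 to 19.4. At 72 h they were 18.4 to 23.5 after PBS and 19.2 to 23.8 after FP, and at 168 h 15.5 to 19.5 after PBS and 17.1 to 21.8 after FP. The ranges of PBS and of the treated groups overlapped at each time. The median of all promoter peaks in the same libraries ran from 9.67 to 14.

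Subunits encoded in mitochondrial DNA could be followed only indirectly. The peak with the most counts of the table, on chromosome 1 (chr1:24611561-24615794, GRCm38), held 24.0% of all counts and 15 to 32.2% in a library. Of its 31-base words, 98.7% also occur in the mitochondrial genome, where they span positions 6784 to 11016 of 16299. This stretch covers COX2, ATP8, ATP6, COX3, ND3 and ND4L wholly and 61.7% of ND4, genes of complexes I, IV and V. Reads from mitochondrial DNA and from this nuclear copy cannot be told apart by such counts. The peak differed from PBS by -0.04 ± 0.17 (IL2) and -0.15 ± 0.17 (FP) at 0.75 h, -0.04 ± 0.15 and 0.03 ± 0.15 at 16 h, 0.06 ± 0.15 at 72 h and -0.41 ± 0.30 at 168 h on the log2 scale, each with an adjusted p of 0.899 or more by edgeR.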

How the data were processed

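The deposited table gave raw counts of reads per peak for 31 ATAC-seq libraries, the column of FP replicate 1 at 0.75 h among them although its field shifts (other) when a line is split at commas inside peak names, which 9561 lines hold. Per the labels and the submitters' processing notes, the authors mapped reads to GRCm38 with BWA and called peaks with MACS2 2.1.2, keeping peaks that 2 pseudo-replicates of a sample shared. For the read counter, duplicate filter and peak merging, nothing is given in the sources used here. Each biological sample had 2 technical replicates, which the table does not separate. The treatment text in the labels gives 0.75 h for all samples, so later times were taken from titles, and 16 h columns were matched to their group only.

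Each time point was fitted with edgeR 4.0.16 (R 4.3.3): TMM factors, filterByExpr with a minimum count of 10 and a minimum total of 15, the quasi-likelihood test and Benjamini-Hochberg adjustment over all tested peaks, called under 0.05. Differences between times came from a fit of all 31 libraries. SE is the log2 fold change over the root of F, and intervals cover 95%. DESeq2 1.42.0, other scalings, filters, fits, a library total covariate, a replicate block and leaving out libraries were the alternatives. Levels are CPM (TMM over 31 libraries) per kb of peak width. Replicate numbers were taken to pair libraries of 2 groups where each same-numbered pair correlated over 0.1 in its deviations, which held for IL2 and PBS at 0.75 h (0.136, 0.305 and 0.105) and for no other comparison. The code was tested on simulated data. Motifs were searched in the central 300 bp of the genome sequence, and overlapping matches of different motifs were allowed.

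The members and gene lists were chosen with earlier results of these data known. Named genes are those past the threshold, the smallest p-values of each comparison, the highest and lowest of each complex, a fixed list of core subunits and paralogues, and Bcl2, Cish, Foxp3 and Il2ra (for each, its peak with the smallest p at 0.75 h after IL2). The restriction to a peak within 1 kb of the gene's own GENCODE start was added after the values were seen, because the most abundant peak listed for Atp5o lies at another gene. Genes named because their groups did not overlap (Sdhc at 72 h, Atp5l, Atp5k) and those of FP against IL2 were also chosen after their values were seen.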

Additional observations from a re-analysis of the deposited data

Results flagged for a closer look

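Of 39 values examined over the 4 FP libraries of 168 h, 2 had 1 library whose gap to the nearest other exceeded the 95% critical share of the whole range in Dixon's test, where chance gives about 1 in 20. Cox7c was at 131 CPM per kb in FP replicate 2 and at 90.1, 87.5 and 83.0 in the others, a gap of 0.853 of the range. Sdhb was at 18.5 in the same library and at 26.1, 25.2 and 25.5 in the others, a gap of 0.889. FP replicate 2 is the shallowest FP library of 168 h, with 12.3 M counts, and the part of depth in these values was not tested.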

How the results depend on the processing

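Across the alternatives that were run, 308 member counts and medians stayed within the tolerance (1.5 times for counts, 1 SD of the library medians for medians) and 2 did not. Within it, medians still changed sign for FP at 0.75 h in 6 of 20 alternatives (down to -0.01), for FP at 16 h (-0.04, library total covariate), at 72 h (-0.02, TMM over promoter peaks) and for FP against IL2 at 0.75 h (0.00, library totals) and 16 h (0.03, covariate), and the 168 h median fell to 0.03 with TMM over promoter peaks. DESeq2 called 1 member at 168 h, Sdhd, at 0.84 on the log2 scale with an adjusted p of 0.0351, and the other alternatives for Sdhd gave 0.74 to 1.06 with adjusted p from 0.126 to 1 (edgeR). With the library total as a covariate the member median of IL2 at 16 h was -0.10 instead of 0.12; the cause of both shifts was not tested. Leaving out each library in turn gave medians of 0.01 to 0.08 (IL2, 0.75 h), -0.01 to 0.08 (FP, 0.75 h), 0.07 to 0.18 (IL2, 16 h), 0.01 to 0.09 (FP, 16 h), 0.01 to 0.13 (72 h) and 0.11 to 0.29 (168 h), with 0 members called. Without both shallow libraries of 168 h (PBS replicate 1 and FP replicate 2), an alternative chosen after seeing the data, the median was 0.22 and 0 members were called. TMM over promoter peaks shifted the median of all peaks at 168 h by -0.129. Between groups of 0.75 h same-numbered deviations correlated at 0.00807 to 0.335, at 72 h at -0.25 to 0.616 and at 168 h at -0.267 to 0.469. Apart from IL2 and PBS at 0.75 h, not every same-numbered pair of a comparison passed 0.1. This rule cannot show that the other same-numbered libraries were handled apart. With the replicate block 0 members were called. The medians were 0.03 (IL2) and 0.01 (FP) at 0.75 h, -0.03 for FP against IL2, 0.05 at 72 h and 0.17 at 168 h. At 72 h the block gave 4 genes at an unadjusted p under 0.05 in place of 2, against 6.83% of promoter peaks. At 16 h no block was fitted: the titles share no number there, and the numbers of the columns are not those of the titles. The shallowest library held 7.39 M counts, and over the comparisons with PBS an interval within 1.5-fold was reached for 24 to 39 of 91 genes.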
